A study of Mus musculus with 6 samples.

Results

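The genes described here are 10 feedback inhibitors and ETS factors of the fibroblast growth factor (FGF) and extracellular signal-regulated kinase (ERK) pathway: Dusp6, Dusp4, Spry1, Spry2, Spry4, Spred1, Spred2, Etv1, Etv4 and Etv5. They were listed by name as known ERK feedback and ETS genes, and the list was made with earlier results of these data known. Each was found through the RefSeq transcript accession of its row, and where a gene has several rows the one with the highest mean over all 6 arrays was taken. Of the 10 genes, 8 had a row, out of 15302 named genes in the table. Dusp4 and Spred1 matched no row by accession and were not analysed here. Each of the 8 had 1 row, and none shared its values with another gene.

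RNA came from cells labelled neural progenitor cells, made from mouse embryonic stem (ES) cells. All cells of both groups carried GFP in the Sox1 locus (Sox1-GFP). The 3 Sox3 over-expression samples also carried Nestin-Sox3, a transgene in which the Nestin promoter drives Sox3, and the 3 control samples did not. Both were kept as monolayers in medium with B27 and N2, received 0.5 µM all-trans retinoic acid on days 0 and 2, and were sorted by FACS on day 4. The labels do not say whether a genotype was 1 ES cell clone or several, and a clone and the transgene cannot be told apart here. The Nestin promoter acts in the cells in which it is active, so the transgene was not under outside control. The samples are labelled biological replicates, but nothing says that they came from separate cultures, so the p-values measure the spread between these samples.

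FGF binding to its receptors activates RAS, which passes the signal through the kinases RAF and MEK to ERK. ERK signalling induces its own brakes: the phosphatase DUSP6 removes the activating phosphates of ERK in the cytoplasm, and Sprouty and Spred proteins act higher up, between the receptor and RAF. ETV1, ETV4 and ETV5, the PEA3 group of ETS transcription factors, are induced by FGF signalling in many embryonic tissues, and in the early embryo FGF/ERK signalling is known for its part in the exit from pluripotency and in neural patterning.

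All values are log2 signals, 1 per gene and array, so a difference of 1 is a doubling. The medians of the 6 arrays lay between 6.85 and 6.87. Their interquartile ranges lay between 2.89 (Sox3 replicate 1) and 3.17 (control replicate 3). Control replicate 3 stood apart in a principal component analysis: its first component (59.2% of the variance) was 22.4 there, 4.83 and 6.04 on control replicates 1 and 2, and between -15.3 and -7.91 with Sox3. Sox3, the targeted gene, was at 9.20, 9.23 and 9.22 in the cells with the transgene and at 7.59, 7.52 and 7.25 in the control cells (limma adjusted p = 0.000189). Over all genes, 195 were higher (1.27%) and 408 lower (2.67%) at a limma adjusted p under 0.05. After quantile normalisation of the deposited values these counts were 297 and 393, so that the share of calls that were higher went from 32.3% to 43.0%.

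Of the 8 measured ERK feedback and ETS genes, 4 rose (Dusp6, Spry4, Etv4 and Etv5) and none fell, against 1.27% of all genes that were called higher. The other 4 did not pass. In 7 of the 8, each Sox3 array exceeded each control array, which held for 13.1% of all genes, and in 0 the order was the opposite (18.3% of all genes). The same 7 were higher at an unadjusted limma p under 0.05, as were 8.69% of all genes. The median log2 difference of the 8 was 0.31, against a median near 0 over all genes (5e-05). With all genes split by mean signal into 10 groups, dimmest first, the median difference ran from 0.05 in group 3 to -0.08 in group 9. Group 9 holds Dusp6 and Spry1, group 8 Etv4 (median -0.07), group 7 Etv5 (-0.05) and group 6 Spred2 and Spry2 (-0.02). Spry4 is in group 4 and Etv1 in group 1, where the medians were above 0 (0.05 and 0.02). The 4 calls depended on the set of arrays. None of the 8 genes was called when Sox3 replicate 1, 2 or 3 or control replicate 1 or 2 was left out, and 2 (Dusp6 and Etv5) without control replicate 3. The number of all genes called also went down in these fits, from 603 to between 138 and 362. These are bulk samples, in which fewer cells of a type and less RNA per cell cannot be told apart.

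**Figure D1:**
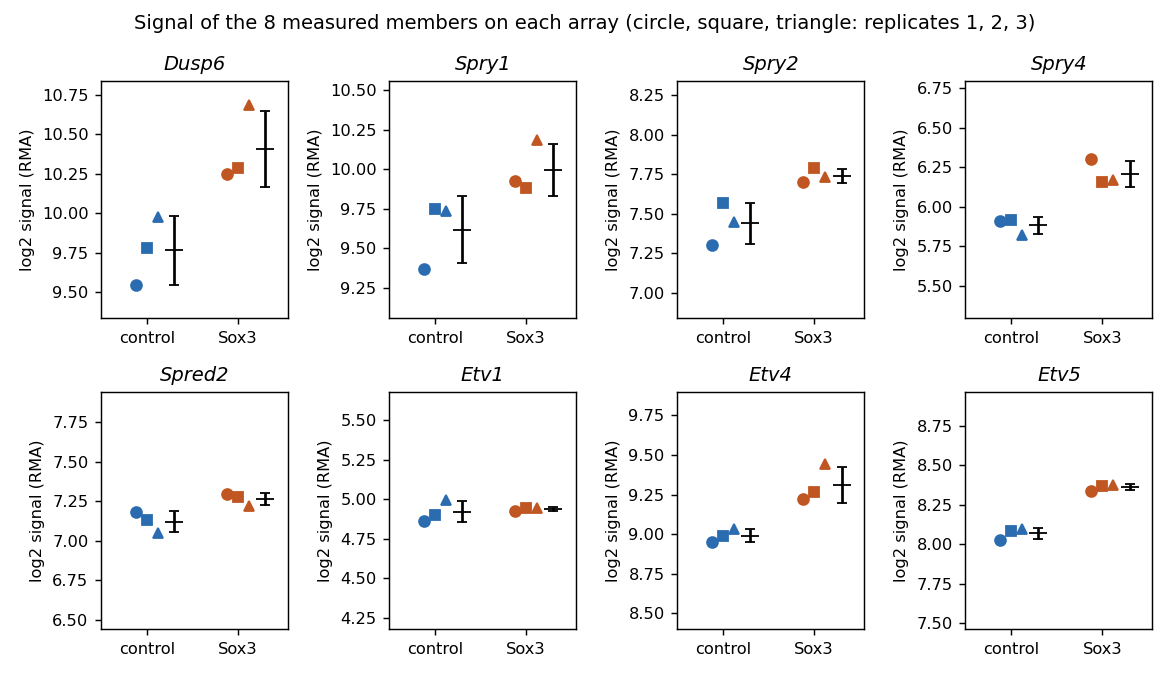
Log2 signal (y axis, RMA, each panel spanning the same range of 1.5) of the 8 measured genes on the 3 control and 3 Sox3 arrays; symbols are replicates 1, 2 and 3, and black bars are the mean and SD of the 3 arrays. The groups are separated in every panel but that of Etv1.

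Dusp6, which encodes the ERK-specific cytoplasmic phosphatase, had the largest difference of the 8. Its log2 signal was 10.25, 10.28 and 10.68 in Sox3 cells and 9.54, 9.78 and 9.98 in control cells. The groups did not overlap, the nearest arrays being 0.27 apart, and both spread widely, with SDs of 0.24 and 0.22 (n = 3 each). The gene rose 1.56-fold, a log2 difference of 0.64 ± 0.14 (SE; limma adjusted p = 0.048), with a 95% interval from 0.32 to 0.96. It ranked 30th from the top among the differences of all 15302 genes. With an adjusted p this near the threshold, the call was lost under median centring (0.055), under robust variance estimation (0.052) and without any 1 of the arrays other than control replicate 3 (0.093 to 0.11). The difference itself ran from 0.50 without Sox3 replicate 3 to 0.75 without control replicate 3.

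Spry1, Spry2 and Spry4 encode Sprouty proteins, membrane-associated inhibitors of signalling from FGF receptors to RAS and RAF. Spry4 was at 6.30, 6.16 and 6.17 in Sox3 cells and at 5.91, 5.92 and 5.82 in control cells. All Sox3 arrays stood above the control arrays by at least 0.24. Spry4 rose 1.25-fold (log2 difference 0.32 ± 0.06 SE, limma adjusted p = 0.028). It passed in each of the 10 other settings in which it was tested with all 6 arrays, and in none of the 6 fits that left out 1 array (adjusted p from 0.053 to 0.093).

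Spry2 was at 7.70, 7.79 and 7.73 in Sox3 cells, a narrow spread, and at 7.30, 7.57 and 7.45 in control cells. The groups did not overlap. Its log2 difference was 0.30 ± 0.07 (SE), 1.23-fold, and missed the threshold (limma adjusted p = 0.058). It passed in 6 of 11 other settings on all 6 arrays (adjusted p from 0.038 to 0.066), among them quantile normalisation and cyclic loess (0.049 and 0.046). Spry1 was at 9.93, 9.88 and 10.18 in Sox3 cells and at 9.37, 9.75 and 9.74 in control cells. Control replicate 1 lay well below the other arrays, and the 2 nearest arrays of the groups were 0.13 apart. Its log2 difference of 0.38 ± 0.12 (SE), 1.30-fold, was the second largest of the 8 but did not pass (limma adjusted p = 0.11), and it was 0.25 without control replicate 1 and 0.28 without Sox3 replicate 3. In none of the 11 other settings on all 6 arrays did it pass (adjusted p from 0.062 to 0.12).

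Spred2, a Sprouty-related protein with an EVH1 domain that blocks the activation of RAF by RAS, was at 7.29, 7.28 and 7.22 in Sox3 cells and at 7.18, 7.13 and 7.05 in control cells. The arrays of the groups were separated by 0.04 at the closest. The log2 difference of 0.14 ± 0.05 (SE), 1.10-fold, did not pass (limma adjusted p = 0.16), and its 95% interval ran from 0.02 to 0.26.

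Among the ETS factors, Etv5 had the smallest spread of the called genes. It was at 8.34, 8.37 and 8.37 in Sox3 cells and at 8.03, 8.08 and 8.10 in control cells. The 2 groups were 0.24 apart at their nearest arrays, against SDs of 0.02 and 0.04. Etv5 rose 1.22-fold (log2 difference 0.29 ± 0.05 SE, limma adjusted p = 0.017) and passed in all 11 other settings on 6 arrays. Its difference moved only between 0.27 and 0.31 when 1 array was left out, but the call held only without control replicate 3 (adjusted p = 0.022, against 0.054 to 0.078 in the other 5 fits).

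Etv4 was at 9.22, 9.27 and 9.44 in Sox3 cells and at 8.95, 8.99 and 9.03 in control cells. The arrays did not overlap, and Sox3 replicate 3 was the highest. Etv4 rose 1.25-fold (log2 difference 0.32 ± 0.07 SE, limma adjusted p = 0.043). Its call was lost under median centring (0.053) and in all 6 fits that left out 1 array (0.062 to 0.10). Etv1 behaved otherwise, at 4.92, 4.95 and 4.94 in Sox3 cells and at 4.87, 4.90 and 4.999 in control cells. These values lie near the low end of the table, whose lowest value is 4.41, and the groups overlapped. The difference was 0.02 ± 0.05 (SE, limma adjusted p = 0.86), with a 95% interval from -0.10 to 0.13, and its sign turned under quantile normalisation and cyclic loess. No detection limit comes with these values, and RMA is known to compress differences of dim genes, so a change of Etv1 within this interval was not detectable.

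**Figure D2:**
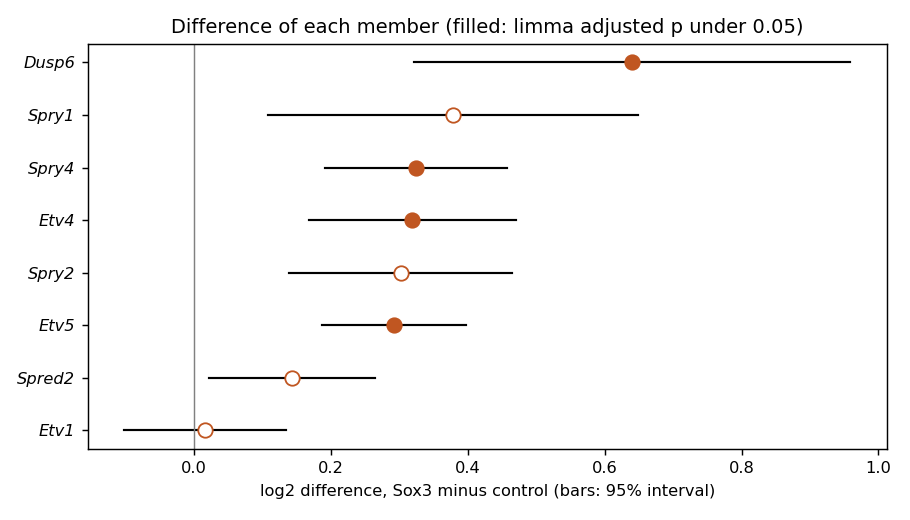
Log2 difference, Sox3 minus control (x axis), of each measured gene with its 95% interval from limma, in order of size; filled circles passed an adjusted p of 0.05. Etv1 alone has an interval that includes 0.

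In order of the log2 difference the genes stood as Dusp6, Spry1, Spry4, Etv4, Spry2, Etv5, Spred2 and Etv1, from 0.64 to 0.02. The intervals of any 2 neighbours in this order overlapped, and from Spry1 to Etv5 the differences lay within 0.38 to 0.29. The interval of Dusp6 lay wholly above those of Spred2 and Etv1. The arrays of a group were ordered differently for different genes. Sox3 replicate 3 was the highest Sox3 array for Dusp6, Spry1, Etv4 and Etv5, and for 37.9% of all genes. Control replicate 1 was the lowest control array for 6 of the 8, all but Spry4 and Spred2, and for 32.2% of all genes. Control replicate 3, the array that stood apart, was the highest control array for Dusp6, Etv1, Etv4 and Etv5 (44.7% of all genes), and the lowest for Spry4 and Spred2 (36.5%). Whether these differences between arrays of a group come from the cultures or the hybridisation was not tested.

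**Figure D3:**
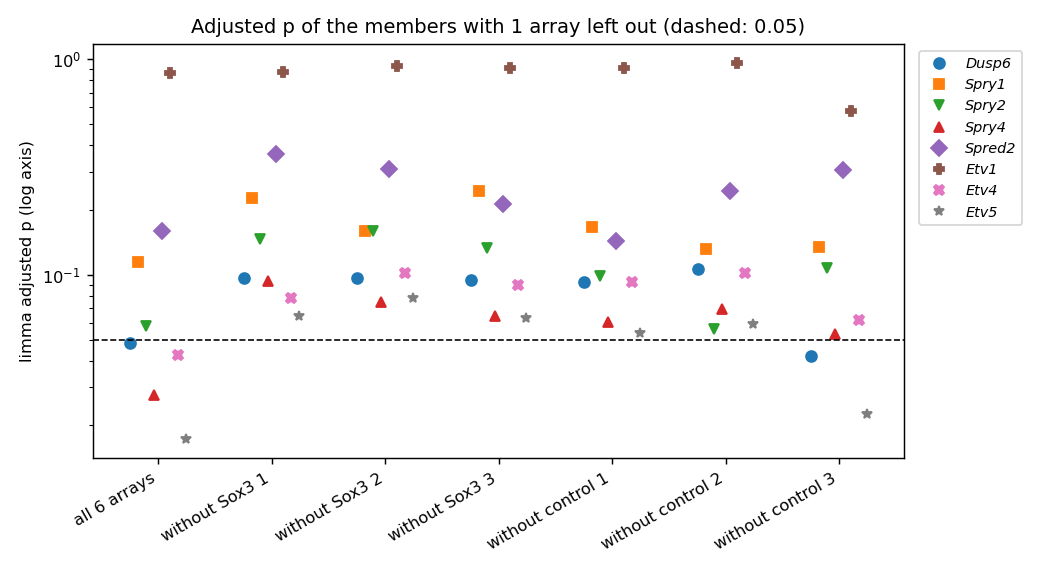
Limma adjusted p (y axis, log scale) of each measured gene with all 6 arrays and with each array left out in turn; the dashed line is 0.05. With all arrays 4 genes lie below the line, without control replicate 3 only Dusp6 and Etv5 do, and in the other 5 fits none does.

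Promoter sequences were looked up for called and uncalled genes alike. RefSeq promoters on GRCm38.p6, 250 bases before to 50 after a start, were found for 7 of the 10 genes, with 9 starts in all. Those of Dusp4, Spry4 and Etv4 were not found. The letters searched on both strands were CCGGAAG, an ETS form, ACAAAG and ACAATG, Sox forms, and ATGCAAA, the beginning of the POU octamer. No 2 matches overlapped. ACAAAG was in 3 of the 9 promoters and in 18.7% of all 32851 promoters of the table. CCGGAAG was in 0 of 9 (8.86% of all), ACAATG in 0 of 9 (12.6%) and ATGCAAA in 0 of 9 (4.63%). A match of so few letters is a description and not a binding site. Shown 5′ to 3′ on the strand of the gene are the promoter of Dusp6, the gene with the largest difference, and the 3 that hold ACAAAG, of which Etv5 was called and Spry2 and Spred2 were not. Capitals mark ACAAAG, or CTTTGT where it lies on the opposite strand. The match begins 3 bases before the start for Etv5 (its second start), 137 bases before for Spry2 and 161 before for Spred2. The windows are chr10:99262981-99263280, plus strand, for Dusp6, chr16:22438319-22438618, minus strand, for Etv5, chr14:105896770-105897069, minus strand, for Spry2, and chr11:19924192-19924491, plus strand, for Spred2.
Dusp6: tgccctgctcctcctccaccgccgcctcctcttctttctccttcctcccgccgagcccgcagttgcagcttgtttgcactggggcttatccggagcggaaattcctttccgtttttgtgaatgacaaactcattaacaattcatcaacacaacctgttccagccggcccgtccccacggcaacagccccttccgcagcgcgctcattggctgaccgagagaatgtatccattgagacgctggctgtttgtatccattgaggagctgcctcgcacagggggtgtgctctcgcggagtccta
Etv5: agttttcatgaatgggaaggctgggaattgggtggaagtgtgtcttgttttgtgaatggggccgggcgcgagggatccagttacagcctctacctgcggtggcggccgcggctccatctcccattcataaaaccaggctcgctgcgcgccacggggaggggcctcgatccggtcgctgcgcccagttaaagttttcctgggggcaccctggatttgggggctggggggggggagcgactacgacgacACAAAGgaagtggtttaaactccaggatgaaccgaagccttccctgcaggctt
Spry2: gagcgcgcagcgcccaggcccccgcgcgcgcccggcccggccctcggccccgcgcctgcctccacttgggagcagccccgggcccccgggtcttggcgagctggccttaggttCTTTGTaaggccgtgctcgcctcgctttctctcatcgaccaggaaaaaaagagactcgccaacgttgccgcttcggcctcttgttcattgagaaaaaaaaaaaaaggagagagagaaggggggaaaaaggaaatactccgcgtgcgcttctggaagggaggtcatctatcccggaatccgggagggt
Spred2: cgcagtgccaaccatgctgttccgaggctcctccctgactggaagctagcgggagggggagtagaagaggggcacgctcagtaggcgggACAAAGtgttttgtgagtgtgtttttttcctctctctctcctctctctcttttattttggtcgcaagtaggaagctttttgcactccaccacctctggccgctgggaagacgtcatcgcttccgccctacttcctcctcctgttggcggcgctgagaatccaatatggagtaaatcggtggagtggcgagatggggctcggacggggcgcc

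In the 6 lists that hold the rest of the pathway, 5 of 143 measured genes rose and 1 fell, a share of 4.20% against 3.94% of all genes. Of 21 measured FGF ligand genes, 0 passed in limma, with 1 higher and 1 lower at an unadjusted p under 0.05, a level that 23.8% of all genes passed in either direction, and with a median log2 difference of 0.05. The ligand genes with the largest differences were Fgf15, the mouse counterpart of human FGF19, and Fgf21, a metabolic hormone. Fgf15 was at 7.03, 7.17 and 7.01 in Sox3 cells and 7.77, 7.61 and 7.19 in control cells, a difference of -0.45 ± 0.14 (SE; limma adjusted p = 0.10). It passed without control replicate 3, the lowest control array (-0.62, limma adjusted p = 0.010), and with array weights (0.0083). Fgf21 differed by 0.22 ± 0.11 (SE; limma adjusted p = 0.28).

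Of 14 receptors, coreceptors and binding proteins, 2 rose and 0 fell (14.3% called, against 3.94% of all genes in either direction), with a median log2 difference of 0.04. Both are proteins outside the kinase receptors. Gpc4, glypican 4, a heparan sulphate proteoglycan of the cell surface, was at 10.59, 10.70 and 10.52 in Sox3 cells and at 9.69, 9.83 and 9.88 in control cells. The groups lay far apart relative to their spread, and Gpc4 rose 1.74-fold (log2 difference 0.80 ± 0.07 SE, limma adjusted p = 0.0026). Fgfbp3, a secreted FGF-binding protein, was at 7.71, 7.63 and 7.04 in Sox3 cells, against 6.15 to 6.28 in control cells, and rose 2.37-fold (1.25 ± 0.16 SE, limma adjusted p = 0.0085). Both calls held in all 6 fits that left out 1 array, unlike those of the feedback genes. None of the receptor genes Fgfr1 to Fgfr4 passed, with log2 differences between -0.06 and 0.19.

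In the RAS-ERK cascade, which holds the adaptors, RAS proteins, kinases and scaffolds, 0 of 27 measured genes passed in limma (2 higher and 1 lower at an unadjusted p under 0.05), and the median log2 difference was -0.02. Over all genes, 23.8% passed that unadjusted level in either direction. Ksr1, a scaffold of RAF, MEK and ERK, had the largest difference at 0.24 ± 0.08 (SE; limma adjusted p = 0.12), followed by Rasa2, a RAS GTPase-activating protein, at -0.17 ± 0.08 (SE; limma adjusted p = 0.24). These are transcript levels, and no measure of ERK phosphorylation was used here.

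Other genes listed as inhibitors of the pathway or as ETS factors did not pass with the deposited values. Of 20 measured genes of the inhibitor list, which also holds phosphatases not specific to ERK, 0 passed in limma (2 higher and 3 lower at an unadjusted p under 0.05, median log2 difference 0.03). Over all genes, 23.8% passed that unadjusted level in either direction. Sulf1, an enzyme that trims heparan sulphate outside the cell, was at 9.24, 9.15 and 9.07 in Sox3 cells and at 9.41, 9.35 and 9.65 in control cells (difference -0.32 ± 0.08 SE, limma adjusted p = 0.082). Lrig1, a transmembrane inhibitor of receptor tyrosine kinases, was at 8.14, 8.16 and 8.06 against 8.29, 8.37 and 8.43 (-0.24 ± 0.06 SE, limma adjusted p = 0.057). With array weights both passed (limma adjusted p = 0.042 and 0.018), and Lrig1 also passed above the median of mean signal (0.045). Of 23 other ETS factor genes, 0 passed in limma (0 higher and 4 lower at an unadjusted p under 0.05; median 0.03), and those with the largest differences were Elf2 at -0.29 ± 0.09 and Ets2 at -0.24 ± 0.07 (SE; limma adjusted p = 0.13 and 0.10). Whether the 8 feedback genes differ from these lists was not tested, and the counts are given side by side. The list medians are not adjusted for the change of the median difference of all genes with signal.

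Genes listed here as induced by ERK, mostly in early responses, went both ways. Of 39, 3 rose and 1 fell (10.3% called, against 3.94% of all genes), with a median log2 difference of 0.07. Hbegf, which encodes a ligand of the EGF receptor, was at 8.50, 8.65 and 8.79 in Sox3 cells and 7.86, 8.06 and 7.99 in control cells. It rose 1.60-fold (0.68 ± 0.08 SE, limma adjusted p = 0.0076) and was called in each of the 6 fits on 5 arrays. Nr4a1, an orphan nuclear receptor of early responses, rose 1.28-fold (0.36 ± 0.05 SE, limma adjusted p = 0.015), and its call was lost without Sox3 replicate 2 or 3 (0.072 and 0.056). Plaur, the urokinase receptor, rose 1.24-fold (0.31 ± 0.06 SE, limma adjusted p = 0.028) and kept its call only without control replicate 1 among the left-out fits (0.0496, against 0.052 to 0.11). Ccnd1, which encodes cyclin D1, was at 8.29, 8.48 and 8.36 in Sox3 cells and at 8.97, 8.88 and 8.99 in control cells. It was 1.48-fold lower (-0.57 ± 0.06 SE, limma adjusted p = 0.0049) in all fits with 1 array left out as well (adjusted p up to 0.023).

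**Figure D4:**
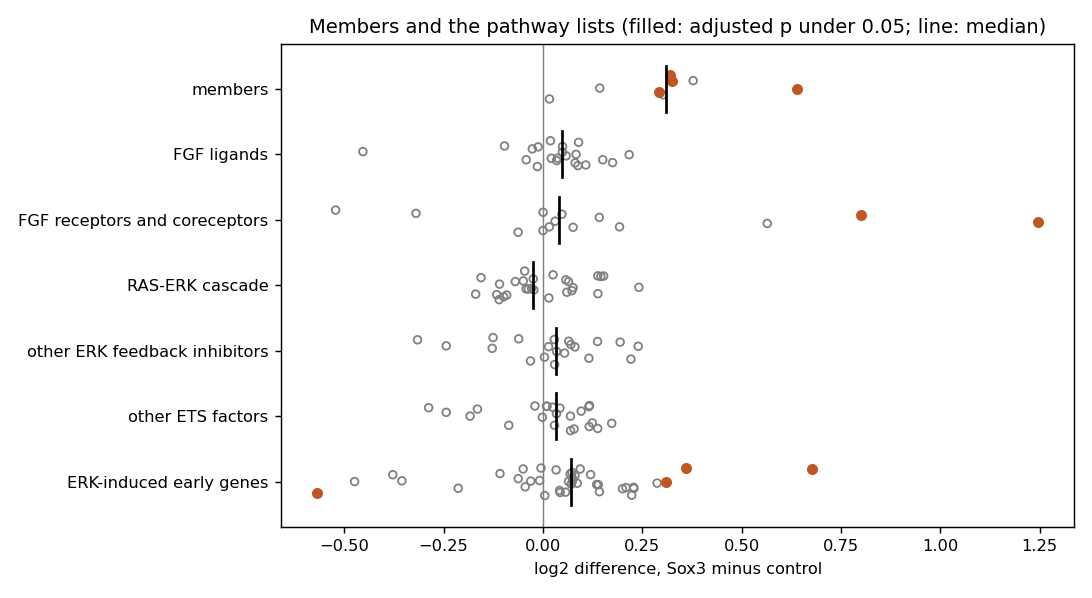
Log2 difference, Sox3 minus control (x axis), of every measured gene of each list (y axis); vertical lines are medians and filled points passed a limma adjusted p of 0.05. The median of the feedback and ETS genes is 0.31, and those of the other 6 lists lie between -0.02 and 0.07.

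The genes whose profile over the 6 arrays was most like that of a called member were taken by root mean square (RMS) distance of mean-centred log2 values among all 15302 genes. The 3 nearest to Dusp6 were Plk2, a polo-like kinase gene, and Fbp2 and Fbp1, which encode fructose bisphosphatases, at distances of 0.11 to 0.12, against a spread of Dusp6 itself of 0.37. Plk2 was at 9.64, 9.94 and 10.26 in Sox3 cells and at 9.28, 9.46 and 9.63 in control cells, so that its groups were separated by less than 0.01 (limma adjusted p = 0.11). Those nearest to Etv5 were Mt2, a metallothionein gene, Noct, a circadian phosphatase gene, and Wsb2, at distances of 0.01 to 0.03, against a spread of 0.15. For Spry4 they were Atp1b2, a sodium pump subunit gene, Plaur and Pdgfa, which encodes a growth factor subunit, at 0.02 to 0.03, against a spread of 0.17. These likenesses rest on 6 arrays in 2 groups and include the difference between the groups.

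Markers of cell types were measured beside these genes, since FGF/ERK feedback genes are expressed in several of them. Of 10 measured neural progenitor markers 1 fell (Sox2) and 0 rose, and the log2 signals summed over the list ran from 79.2 to 81.0 in Sox3 cells and from 79.4 to 80.0 in control cells. The means over all arrays were 12.2 for Vim and 11.8 for Sox2, and 5.61 for Hes5, the lowest of the list. Sox1, whose locus carries GFP, had a mean of 6.91 (percentile 46.8 of the signals of all genes), and Pax6 of 5.96 (percentile 28.4). Of 9 pluripotency markers 0 passed in limma (2 higher and 1 lower at an unadjusted p under 0.05), with sums of 88.1 to 89.2 and 87.6 to 89.5. Over all genes, 23.8% passed that unadjusted level in either direction. Dppa5a and Zfp42, markers of pluripotent cells, had means of 13.5 and 12.6 over all arrays (percentiles 99.8 and 99.1). The mean of Pou5f1 was 10.6 (percentile 91.6), and that of Dppa3, the lowest of the list, was 6.63 (percentile 42.5). Klf4, Fgf4 and Esrrb lay at percentiles 61.4, 66.0 and 66.2. The epiblast list of 6 had 1 higher and 1 lower, with sums of 44.7 to 44.8 and 44.5 to 45.5. The share called was 10% of the neural progenitor list and 33.3% of the epiblast list, against 3.94% of all genes.

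Of the 7 marker lists, 3 had sums that did not overlap between the groups. The sums of the 8 feedback genes did not overlap either (64.0 to 64.7 with Sox3, 61.2 to 62.2 without). That follows from the 7 of them whose arrays were each separated, and is no further observation. Sums of the lists of FGF receptors and of early ERK response genes also did not overlap. How often sums of such lists separate over all genes was not computed, and 1 or 2 genes can separate a sum. In the receptor list the largest differences were those of Fgfbp3 (1.25) and Gpc4 (0.80). Neuronal markers, of which 1 of 10 fell, summed to 65.7 to 66.1 in Sox3 cells and 67.1 to 67.8 in control cells. Mesoderm markers, of which 2 of 10 rose (Tagln and Acta2) and 2 fell (Foxc2 and Col1a2), summed to 72.6 to 73.8 against 69.9 to 71.2. Without Tagln and Acta2, genes of contractile cells, the other 8 summed to 54.4 to 54.9 against 54.4 to 55.1, which overlap. Those 2 had the largest differences of the list and were set aside after their values were seen. Foxc2 and Col1a2 were kept, so the overlap depends on this choice. Of the 10 differences, 8 were above 0 and 2 below. The 5 measured neural crest markers, of which 1 rose, summed to 32.6 to 32.9 against 32.3 to 32.5. The gene that rose, Foxd3, differed by 0.36, and the other 4 by -0.15 to 0.11. The share called was 10% of the neuronal, 40% of the mesoderm and 20% of the neural crest list, against 3.94% of all genes. Of 8 endoderm markers 4 fell, against 2.67% of all genes, with sums of 59.1 to 60.7 and 60.2 to 62.9. Cubn, Foxa2, Afp and Ttr fell, by 1.00, 0.57, 0.56 and 0.29 on the log2 scale, while Gata4 and Gata6 differed by 0.26 and 0.35 and did not pass (limma adjusted p = 0.15 for both). No marker is listed at 0, since RMA values have no zero. The part of these cell types in the differences of the feedback genes was not tested.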

How the data were processed

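Log2 expression values were deposited, 1 per probe set and array. Per the submitters' processing notes, the authors used Affymetrix Power Tools and RMA, a method that adjusts background, equalises probe distributions across arrays by quantiles and combines the probes of a set. No version, array type or probe set definition was found in the labels or the table. Precision is limited by the 3 arrays per group.

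Of 21940 rows, 64 array controls were left out. The other 21876 were matched by unversioned accession to RefSeq genes (GRCm38.p6), which named 17123 rows with 1 symbol each and left 4753 unnamed. Differences between groups were tested two-sided in R 4.3.3 by limma 3.58.1 (lmFit, eBayes) with no block and no filter, with Benjamini-Hochberg adjustment over all 21876 rows and a threshold of 0.05. Intervals are 95%. The procedure was run on simulated data of independent noise, without an outlying array or a shift with signal. That run does not test how such features act on the calls here. Same-numbered arrays deviated from their group means with correlations of 0.29, -0.21 and 0.09, which cannot exclude pairing. The labels do not say that the numbers mark pairs, and they were not taken as pairs.

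The genes, lists and motifs were chosen with earlier results of these data known. From each pathway list the text names up to 4 called genes by smallest p, or the 2 of largest difference, and the 3 genes most like Dusp6, Etv5 and Spry4; Fgfr1 to Fgfr4 and the markers named were chosen after their values were seen. Alternatives were other normalisations, filters, variance models, array weights, a replicate block, named genes alone, probe set averaging and leaving out each array.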

Additional observations from a re-analysis of the deposited data

How the results depend on the processing

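Of the 8 feedback and ETS genes, 4 were called higher. The count was 2 under median centring, 3 under robust variance estimation, 4 or 5 in the other 9 settings on 6 arrays, and 0 to 2 with 1 array left out; none was called lower in any of these. With the replicate number as a block it was 5, Spry2 being added (limma adjusted p = 0.045). In that fit the limma adjusted p of Dusp6 was 0.0081, and those of Spry4, Etv4 and Etv5 were 0.034, 0.035 and 0.034. The labels do not say whether the numbers mark pairs, and the check of deviations cannot settle it. Only Etv1 turned its sign, to -0.00345 under quantile normalisation, -0.0127 under cyclic loess and -0.0121 without control replicate 1, against up to 0.0545 without control replicate 3. Spry4 lay below the median filter, and Etv1 below both filters, so they had no value there.

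Over all genes, 195 higher became 297 after quantile normalisation. Array weights, which gave control replicate 3 the lowest weight (0.29), called 607 higher and 976 lower. With 1 array left out, 58 to 147 were higher and 66 to 215 lower. In the pathway lists together, 5 higher and 1 lower became 10 and 5 with array weights. Calls lower were 2 above the 25th percentile of mean signal, 3 above its median and 3 with the replicate block, and with 1 array left out there were 3 to 5 higher and 1 to 2 lower. The causes were not tested. In the RAS-ERK cascade and the other ETS factors, 0 genes were called in every setting run. Signals near the low end, as for Etv1, limit what could be detected.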

Other observations

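Early ERK response genes other than those called, chosen after their values were seen, lay on both sides. Egr1, a zinc finger factor of early responses, had means of 10.86 with Sox3 and 11.33 without (n = 3 each), a log2 difference of -0.47 ± 0.19 (SE; limma adjusted p = 0.18). Ier2 and Klf10, also early response genes, differed by -0.36 ± 0.10 and -0.38 ± 0.09 (SE; limma adjusted p = 0.099 and 0.069). Plk3, Klf6 and Fosl2 were on the higher side, with differences of 0.29 ± 0.10, 0.20 ± 0.08 and 0.14 ± 0.06 (SE; limma adjusted p = 0.13, 0.17 and 0.20), and Fos differed by 0.23 ± 0.21 (SE; limma adjusted p = 0.54). In the whole list of 39, 6 genes were higher and 5 lower at an unadjusted limma p under 0.05, the called genes included. Over all genes, 23.8% passed that unadjusted level in either direction. None of the 7 genes named here passed the adjusted threshold.

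Fgfbp1, a second secreted FGF-binding protein and likewise chosen after its value was seen, had means of 6.53 with Sox3 and 5.96 without (n = 3 each), a log2 difference of 0.56 ± 0.13 (SE; limma adjusted p = 0.053). In the same list Flrt2 and Flrt3 were lower, by -0.52 ± 0.18 and -0.32 ± 0.15 (SE; limma adjusted p = 0.14 and 0.24). Of its 14 differences, 10 were positive and 4 negative. With the replicate block, 2 genes of this list were called lower, and 1 with array weights. Dusp9, another ERK phosphatase, differed by 0.22 ± 0.09 (SE; limma adjusted p = 0.19), and Dusp1, a nuclear phosphatase of several MAP kinases, by 0.01 ± 0.08 (SE; limma adjusted p = 0.92). Sulf2, a paralogue of Sulf1, differed in the other direction from it, by 0.24 ± 0.06 (SE; limma adjusted p = 0.070).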
